A study of Mus musculus with 8 samples.

Results

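The Kruppel-like factors are transcription factors that bind GC-rich and CACCC-type DNA sequences through zinc fingers at their C terminus. In mouse embryonic stem cells Klf2, Klf4 and Klf5 are known as overlapping members of the naive pluripotency network, Klf4 being a target of LIF and STAT3 signalling and Klf2 being held down by MEK and ERK signalling. Other members are better known as repressors or as genes induced by growth factors, hormones and stress. Here 9 members, taken by name (Klf2, Klf3, Klf4, Klf5, Klf6, Klf9, Klf10, Klf13 and Klf16) were followed, of 23017 genes with a summed transcript value, and Klf2, Klf4 and Klf5 were set against the other 6.

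RNA came from wild-type Bruce 4 cells, embryonic stem cells of a male C57BL/6J mouse, so every result describes 1 line. For 2 weeks the cells had grown on a coating of either gelatin or LN511 (laminin-511, a basement membrane protein). The medium was 2i, which holds inhibitors of MEK and of GSK3, or Std, whose composition the labels do not give. The 4 groups were LN511 2i, LN511 Std, gelatin 2i and gelatin Std, each with 2 libraries that the design text describes as biological replication. The titles of the LN511 libraries spell the coating LM511.

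Levels are in FPKM, a unit that divides fragments by transcript length and sequencing depth, summed over a gene's RefSeq transcripts, and a mean ± SD covers the 2 libraries of a group. A fold change is a difference of log2(FPKM + 1) between group means, given with its standard error (SE). The added 1 makes it too small for low genes. Adjusted p-values are from limma over 10288 genes. A statement that libraries of 2 groups did not overlap is no test. With 2 libraries per group it is common without a difference, and its share over all tested genes was not counted. The deposited files give FPKM without read counts, and the spacing of the lowest values put the 8 libraries at roughly 2239000 to 2692000 fragments, within 1.20-fold of one another. Pou5f1, the core pluripotency factor, was at 949 FPKM or more in every library. It is 1 of 7 listed embryonic stem cell markers, of which 6 were tested, and the others were not all level. At a limma adjusted p under 0.05, 3 of the 6 were higher and 2 lower in 2i on each coating. Over all tested genes 15.4% were called on gelatin and 18.6% on LN511. Utf1, 1 of those lower, had means of 82.1 FPKM in LN511 2i, against 393 in LN511 Std, and 81.9 in gelatin 2i, against 348 in gelatin Std. Summed levels of 10 fibroblast markers were 1.68 to 6.15 FPKM and those of 7 primitive endoderm markers 0.868 to 4.54 FPKM, with the fibroblast genes Postn and Lum listed at 0 in all 8 libraries. In these bulk samples, fewer cells of a type and less RNA per cell cannot be told apart.

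Of the 9 members, 7 were tested. Klf3 and Klf9 were left out of the tests because 1 replicate of a group was listed at 0 while the other held 5 FPKM or more, and such a 0 can be a failed estimate. All members had a single RefSeq transcript above 0, and a further Klf10 transcript was listed at 0 in every library.

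The promoters of the members whose levels changed between groups are shown because GC-box and CACCC-type letters are what the family itself binds. The windows run from 250 bases before to 50 bases after the gene start, read 5′ to 3′ on the gene's strand, and come from RefSeq on GRCm38.p6, the assembly that mm10 names. Capitals mark the GC box (GGGCGG) and the CACCC box (CCACCC) on either strand. Klf2 lies on the plus strand of chromosome 8 with 3 exons in GENCODE (window chr8:72318812-72319111), Klf4 on the minus strand of chromosome 4 with 5 exons (window chr4:55532426-55532725), and Klf6 on the plus strand of chromosome 13 with 4 exons (window chr13:5861239-5861538).
Klf2: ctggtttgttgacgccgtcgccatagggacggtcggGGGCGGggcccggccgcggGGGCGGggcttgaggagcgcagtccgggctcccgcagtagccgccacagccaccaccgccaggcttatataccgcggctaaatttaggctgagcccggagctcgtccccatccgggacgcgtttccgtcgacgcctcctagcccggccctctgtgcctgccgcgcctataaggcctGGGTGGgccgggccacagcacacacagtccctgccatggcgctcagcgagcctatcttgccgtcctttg
Klf4: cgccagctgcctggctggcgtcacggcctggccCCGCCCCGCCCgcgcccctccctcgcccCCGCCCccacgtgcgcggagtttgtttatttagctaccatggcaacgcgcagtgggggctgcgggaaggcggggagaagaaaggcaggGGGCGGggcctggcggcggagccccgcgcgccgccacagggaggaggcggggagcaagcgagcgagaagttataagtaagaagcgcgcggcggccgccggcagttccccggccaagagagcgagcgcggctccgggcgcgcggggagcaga
Klf6: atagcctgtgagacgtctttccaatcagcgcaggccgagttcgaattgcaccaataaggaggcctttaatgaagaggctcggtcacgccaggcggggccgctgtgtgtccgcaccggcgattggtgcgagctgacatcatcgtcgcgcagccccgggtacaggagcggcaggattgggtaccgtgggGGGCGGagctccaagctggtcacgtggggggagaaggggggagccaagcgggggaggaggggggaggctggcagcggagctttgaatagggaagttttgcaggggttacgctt

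The Klf4 window held 4 GC boxes, of which a pair overlap in 1 base, the Klf2 window 2 and the Klf6 window 1. The Klf2 window also held 1 CACCC box. All motifs were searched on both strands, and in the Klf13 window a GC box and a CACCC box share bases. Promoter entries were matched for 6 of the 9 members (Klf2, Klf3, Klf4, Klf6, Klf9 and Klf13). A GC box was found in 5 of these 6, against 35.7% of 32851 promoter windows of the same length, and a CACCC box in 3, against 31.5%. The members' windows had a median GC content of 70.7%, against 52.7% over all windows, and the part of base composition in these counts was not tested. A STAT site (TTCNNNGAA) was found in the Klf9 window, against 8.3% of all windows, and a TCF site (CTTTGA) in the Klf6 window, against 16% of all windows. The CArG box, the nuclear receptor motif AAGGTCA (4.72% of all windows), the ETS motif CCGGAAG (8.86%) and the cAMP response element TGACGTCA (1.79%) were also searched. None was found in these 6 windows, which says only that these letters are not in them.

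The comparison of 2i with Std medium asked how the family differed between the media on each coating. Since the composition of Std is not given, the inhibitors and other differences of medium cannot be told apart. Klf2 and Klf4 rose several-fold in 2i on both coatings. Klf5 was also higher in 2i but missed the threshold, and Klf6 fell in 2i on LN511. The remaining tested members, Klf10, Klf13 and Klf16, passed no test.

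Klf2, known outside stem cells for T-cell quiescence and the response of endothelium to flow, stood at 108 and 136 FPKM in LN511 2i, against 12.5 and 9.58 FPKM in LN511 Std. On gelatin the levels were 116 and 105 FPKM in 2i, against 13.5 and 14.8 FPKM in Std. All 4 libraries in 2i were far above all 4 in Std. The means were 11.1 times as high on LN511 (log2 3.36, SE 0.17, limma adjusted p = 0.000134) and 7.84 times as high on gelatin (log2 2.88, SE 0.17, limma adjusted p = 0.000221). Among the 10288 tested genes this rise ranked 16 on LN511 and 31 on gelatin.

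Klf4, one of the classical reprogramming factors, stood at 112 and 114 FPKM in LN511 2i, against 20.2 and 24.9 FPKM in LN511 Std. Gelatin gave 96.3 and 91.8 FPKM in 2i, against 19.3 and 20.9 FPKM in Std. The media did not overlap on either coating, and replicates of Klf4 lay closer together than those of Klf2 in LN511 2i. The means were 5.02 times as high on LN511 (log2 2.29, SE 0.12, limma adjusted p = 0.000156) and 4.68 times as high on gelatin (log2 2.17, SE 0.12, limma adjusted p = 0.000184).

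Klf5, needed for the inner cell mass and trophectoderm of the early mouse embryo, stood at 24.2 and 21.9 FPKM in LN511 2i, against 12.6 and 12.01 FPKM in LN511 Std. On gelatin Klf5 was at 31.2 and 30.2 FPKM in 2i, against 20.4 and 9.19 FPKM in Std. The libraries of the media did not overlap, but the gelatin Std replicates differed from each other by more than any other pair for this gene. The fold changes were 0.85 on LN511 (SE 0.32, 95% interval 0.096 to 1.61, limma adjusted p = 0.116) and 1.10 on gelatin (SE 0.32, 95% interval 0.34 to 1.86, limma adjusted p = 0.0644). Without gelatin Std replicate 1, the gelatin comparison gave log2 1.64 and passed (limma adjusted p = 0.00845). The LN511 comparison passed without gelatin Std replicate 1 (0.0155) or replicate 2 (0.0139), since all libraries share the estimate of the spread, and with only the 4 LN511 libraries (0.0442).

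Klf6, a growth factor and stress response member also described as a tumour suppressor, stood at 5.57 and 9.38 FPKM in LN511 2i, against 20.1 and 22.5 FPKM in LN511 Std. On gelatin it stood at 7.85 and 6.38 FPKM in 2i, against 7.36 and 7.61 FPKM in Std. LN511 Std was the group that stood apart, with both libraries above the other 6. The fold change on LN511 was -1.43 (SE 0.25, limma adjusted p = 0.0121) and on gelatin -0.069 (SE 0.25, 95% interval -0.68 to 0.54, limma adjusted p = 0.891). The fall on LN511 missed the threshold without LN511 Std replicate 1 (limma adjusted p = 0.0560) or replicate 2 (0.0728), and with only the 4 LN511 libraries (0.0591).

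**Figure D1:**
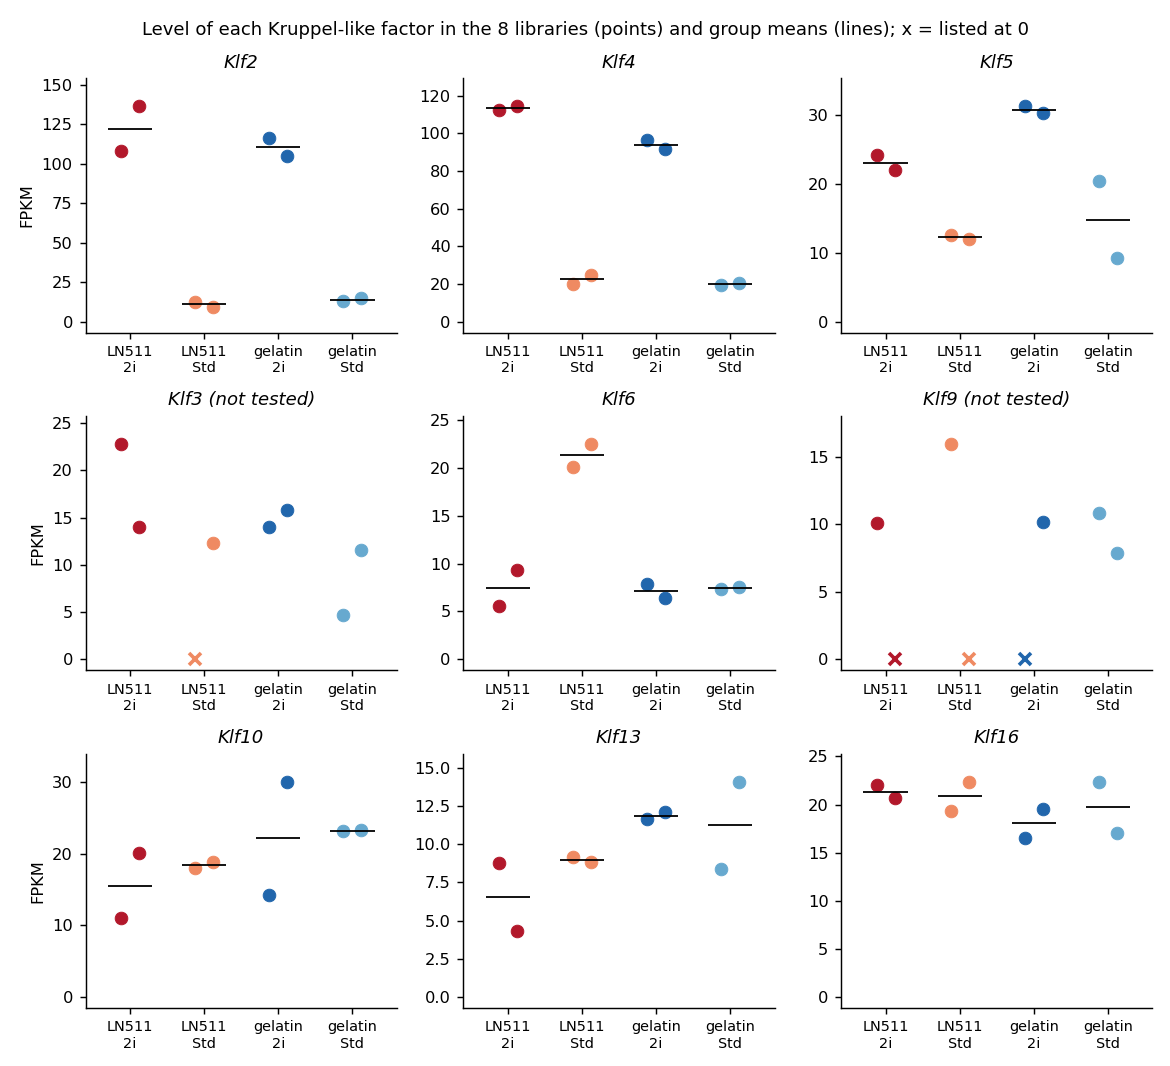
Level of each of the 9 members in FPKM (vertical axis, linear and different for each gene) in the 4 groups of coating and medium. Points are libraries, lines are means of tested members, and crosses mark values listed at 0; Klf2 and Klf4 are high in the 2i libraries of both coatings, Klf6 is high in LN511 Std, and Klf3 and Klf9 carry the listed zeros.

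Counted over the 7 tested members, 2 rose and 0 fell in 2i with the gelatin coating, where 15.4% of all tested genes were called, 8.18% higher and 7.22% lower. On LN511, 2 rose and 1 fell, where 18.6% of all tested genes were called, 8.63% higher and 9.98% lower. The median fold change of Klf2, Klf4 and Klf5 was 2.17 on gelatin and 2.29 on LN511, and that of the 4 other tested members was -0.091 on gelatin and -0.37 on LN511. Over all tested genes the medians were 0.0035 on gelatin and -0.037 on LN511. These medians describe the groups and test nothing. They leave out Klf3 and Klf9. With zeros treated as missing, the fold change of Klf3 in 2i was 0.91 on gelatin and 0.51 on LN511, upward like Klf2, Klf4 and Klf5. That of Klf9 was 0.12 on gelatin and -0.61 on LN511. The formative and primed markers of the same libraries (4 genes) summed to 49.9 and 48.1 FPKM in LN511 2i, against 262 and 168 FPKM in LN511 Std, and to 15.9 and 28.5 FPKM in gelatin 2i, against 177 and 320 FPKM in gelatin Std, with Fgf5 listed at 0 in both 2i groups. Dnmt3b made up most of these sums in every library, at 48.5 and 46.5 FPKM in LN511 2i, against 211 and 121 FPKM in LN511 Std. Of the 4 genes, 4 were called lower in 2i on gelatin and 3 on LN511. The part of a change in cell state in the members' values was not tested.

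Klf10, first described as an early gene of TGF-beta signalling, stood at 11.0 and 20.0 FPKM in LN511 2i and 18.0 and 18.8 FPKM in LN511 Std. On gelatin it stood at 14.2 and 30.0 FPKM in 2i and 23.1 and 23.3 FPKM in Std. Its replicates lay far apart in both 2i groups and close together in both Std groups. Its fold changes were -0.29 on LN511 (95% interval -1.18 to 0.61, limma adjusted p = 0.653) and -0.16 on gelatin (95% interval -1.05 to 0.74, limma adjusted p = 0.828).

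Klf13, a regulator of chemokine expression in T cells, stood at 8.79 and 4.35 FPKM in LN511 2i and 9.15 and 8.81 FPKM in LN511 Std. On gelatin it stood at 11.6 and 12.1 FPKM in 2i and 8.34 and 14.1 FPKM in Std. These fold changes, -0.46 on LN511 (95% interval -1.28 to 0.36) and 0.12 on gelatin (95% interval -0.71 to 0.94), did not pass (limma adjusted p = 0.403 and 0.865). Klf16, described as a regulator of dopamine receptor genes, had the narrowest range of the 7 tested members, at 16.5 to 22.4 FPKM over the 8 libraries. Its fold changes in 2i were 0.034 on LN511 (95% interval -0.39 to 0.46) and -0.11 on gelatin (95% interval -0.54 to 0.31).

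Klf3, a repressor that recruits the corepressor CtBP, stood at 22.8 and 14.0 FPKM in LN511 2i and at 0 and 12.3 FPKM in LN511 Std. On gelatin it stood at 14.0 and 15.8 FPKM in 2i and 4.67 and 11.6 FPKM in Std. With the 0 treated as missing, so that LN511 Std rested on 1 library assumed to vary like the others, the fold change in 2i was 0.91 on gelatin (SE 0.43, limma adjusted p = 0.238) and 0.51 on LN511 (SE 0.53, limma adjusted p = 0.567). Klf9, a gene induced by glucocorticoids and thyroid hormone, was listed at 10.1 and 0 FPKM in LN511 2i, against 15.9 and 0 FPKM in LN511 Std. Gelatin 2i gave 0 and 10.1 FPKM, against 10.8 and 7.91 FPKM in gelatin Std. Its 5 values above 0 lay between 7.91 and 15.9 FPKM, and no order of the groups can be read from them. With the 3 zeros treated as missing, LN511 2i, LN511 Std and gelatin 2i rested on 1 library each, so that gelatin Std alone gave the gene's own spread and the lone libraries were assumed to vary like it. On that footing the fold changes in 2i were 0.12 on gelatin (SE 0.31, limma adjusted p = 0.855) and -0.61 on LN511 (SE 0.36, limma adjusted p = 0.354).

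**Figure D2:**
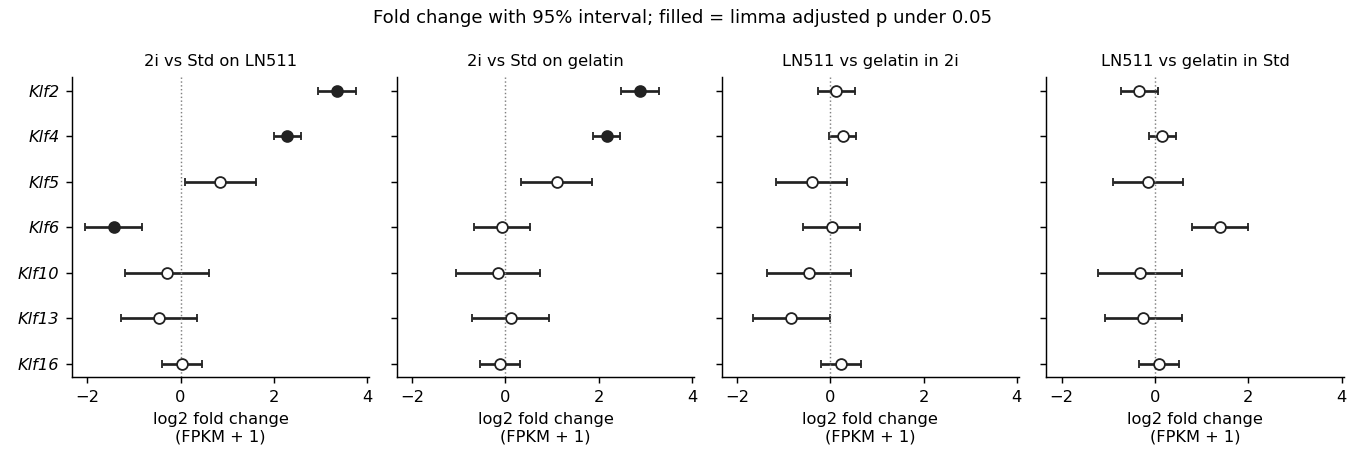
Fold change of the 7 tested members on the log2(FPKM + 1) scale (horizontal axis) for 2i against Std on each coating and for LN511 against gelatin in each medium, with 95% intervals from limma. Filled points have an adjusted p under 0.05; they are Klf2 and Klf4 in 2i on both coatings and Klf6 in 2i on LN511.

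The coating comparison asked what LN511 changed against gelatin within a medium. No member passed in either medium by limma, where 2.09% of all tested genes were called in Std, 1.52% higher and 0.573% lower, and 0.0194% in 2i, with 0% lower. An unadjusted p under 0.05 was found for 1 of 7 members in Std (Klf6) and 1 in 2i (Klf13). The share of all tested genes was similar, with 1637 and 1234 of 10288. In Std medium Klf6 was at 20.1 and 22.5 FPKM on LN511, against 7.36 and 7.61 FPKM on gelatin. This fold change was 1.39 (SE 0.25, 95% interval 0.79 to 2.00), with a limma adjusted p of 0.0501. It passed without LN511 2i replicate 1 (limma adjusted p = 0.0318) or replicate 2 (0.0327), and its adjusted p lay between 0.0318 and 0.211 over the alternatives run.

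In 2i medium Klf6 was at 5.57 and 9.38 FPKM on LN511, against 7.85 and 6.38 FPKM on gelatin, and the groups overlapped (log2 0.031, SE 0.25, limma adjusted p = 0.983). The interaction of coating and medium, which tests whether the fold change in 2i differs between the coatings, was -1.36 for Klf6 (SE 0.36) and did not pass (unadjusted p = 0.00738, limma adjusted p = 0.223). No member passed the interaction, where 0.185% of all tested genes were called, 0.0486% higher and 0.136% lower, and Klf6 was the 1 member with an unadjusted p under 0.05, against 1255 of all tested genes. Summed levels of 7 trophoblast markers were 27.6 and 23.4 FPKM in LN511 Std, against 10.1 and 13.4 FPKM in gelatin Std, with Elf5 listed at 0 in both groups, and were 16.4 and 18.5 FPKM in LN511 2i and 29.3 and 28.9 FPKM in gelatin 2i. Tfap2c made up most of the gelatin 2i sum, with a mean of 19.2 FPKM there. Krt7 and Hand1 were, like Klf6, highest in LN511 Std, where Krt7 was at 10.2 and 7.65 FPKM and Hand1 at 3.12 and 2.35 FPKM. In the other 6 libraries Krt7 reached 3.09 FPKM at most and Hand1 0.487 FPKM. Gata3 also had its highest mean in LN511 Std (2.05 FPKM), with libraries that overlapped those of LN511 2i. The remaining markers were highest elsewhere. Cdx2 was highest in LN511 2i (mean 1.98 FPKM, against 0.539 FPKM in LN511 Std), and Elf5 was above 0 in LN511 2i only. Eomes and Tfap2c were highest in gelatin 2i, Eomes with a mean of 5.33 FPKM, against 0.679 FPKM in LN511 Std. Of these 7 markers 6 were tested, and 1, Hand1, was called higher on LN511 in Std (log2 1.61, SE 0.29, limma adjusted p = 0.0490). The 7 primitive endoderm markers summed to 4.33 and 4.54 FPKM in LN511 Std, with Foxa2 listed at 0, against 1.38 and 2.05 FPKM in gelatin Std, with Foxa2 and Gata6 at 0, and reached 2.65 FPKM at most in 2i. The 10 fibroblast markers summed to 5.35 and 6.06 FPKM in LN511 Std, against 6.15 and 6.13 FPKM in gelatin Std. Their sums were lower in 2i, at 1.68 and 2.69 FPKM on LN511 and 3.10 and 2.42 FPKM on gelatin. The part of such cells in the Klf6 values was not tested.

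For Klf2 and Klf4 no coating difference passed. The libraries of Klf4 in 2i and of Klf2 in Std did not overlap between coatings, which with 2 libraries per group is common without a difference. In 2i, Klf2 differed by 0.13 between LN511 and gelatin (95% interval -0.27 to 0.53) and Klf4 by 0.27 (95% interval -0.023 to 0.56). In Std, Klf2 differed by -0.34 (95% interval -0.74 to 0.063) and Klf4 by 0.15 (95% interval -0.14 to 0.44). Klf2 had an interaction of 0.47 (SE 0.24, limma adjusted p = 0.491) and Klf4 of 0.11 (SE 0.17, limma adjusted p = 0.839). Klf13 in 2i was at 8.79 and 4.35 FPKM on LN511, against 11.6 and 12.1 FPKM on gelatin, with no overlap (log2 -0.83, SE 0.34, limma adjusted p = 0.407).

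FPKM is scaled by length, so levels can be ordered between members. In LN511 2i, Klf2 (122 ± 20.1 FPKM) and Klf4 (113 ± 1.33 FPKM) came first with overlapping libraries, and Klf5 (23.0 ± 1.56) and Klf16 (21.4 ± 0.917), which also overlapped, followed well below. In LN511 Std the leading members were Klf4 (22.6 ± 3.34), Klf6 (21.3 ± 1.68) and Klf16 (20.9 ± 2.14), each overlapping its neighbour, and Klf2 (11.0 ± 2.04) was next to last before Klf13 (8.98 ± 0.237). In gelatin 2i the order was Klf2 (111 ± 7.74), Klf4 (94.1 ± 3.15) and Klf5 (30.7 ± 0.716), none of which overlapped, and Klf6 (7.12 ± 1.04) was last. In gelatin Std, Klf10 came first (23.2 ± 0.101), the neighbours from Klf4 (20.1 ± 1.09) through Klf16, Klf5 and Klf2 to Klf13 (11.2 ± 4.06) overlapped, and Klf6 (7.48 ± 0.175) was last.

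The order of Klf2 and Klf4 themselves differed between media. The ratio of Klf2 to Klf4 was 0.959 and 1.19 in LN511 2i, against 0.617 and 0.384 in LN511 Std, and 1.21 and 1.14 in gelatin 2i, against 0.696 and 0.707 in gelatin Std. Klf2 was thus above Klf4 in 3 of 4 libraries in 2i and below it in all 4 in Std. This ratio was chosen after its values were seen and was not tested.

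Summed over the 7 tested members, the family held 292 and 327 FPKM in LN511 2i, against 112 and 119 in LN511 Std, and 294 and 295 in gelatin 2i, against 114 and 107 in gelatin Std. Klf2, Klf4 and Klf5 together made up 83.5 ± 0.297% of it in LN511 2i, against 39.8 ± 0.981% in LN511 Std, and 79.9 ± 4.23% in gelatin 2i, against 44.2 ± 3.23% in gelatin Std. The other 4 summed to 47.4 and 54.5 FPKM in LN511 2i, against 66.6 and 72.5 FPKM in LN511 Std, and to 50.2 and 68.1 FPKM in gelatin 2i, against 61.2 and 62.0 FPKM in gelatin Std. The libraries of the media did not overlap in the sum of Klf2, Klf4 and Klf5 on either coating. In the sum of the other 4 they did not overlap on LN511 and overlapped on gelatin, where Klf10 was at 14.2 and 30.0 FPKM in 2i. No sum was tested, and with 2 libraries per group a lack of overlap is common without a difference, so no contrast between the coatings is read from it. Of these 4, Klf6 had the largest difference on LN511, with means of 7.48 FPKM in 2i and 21.3 FPKM in Std, and was the only one called. Klf6 alone made up 18.4 ± 0.643% in LN511 Std, against 6.78 ± 0.485% in gelatin Std, and 2.39 ± 0.678% in LN511 2i, against 2.42 ± 0.362% in gelatin 2i. The mean log2 level of Klf2, Klf4 and Klf5 minus that of the other 4 was 2.52 ± 0.037 in LN511 2i, against -0.18 ± 0.094 in LN511 Std, and 2.27 ± 0.25 in gelatin 2i, against 0.16 ± 0.26 in gelatin Std.

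**Figure D3:**
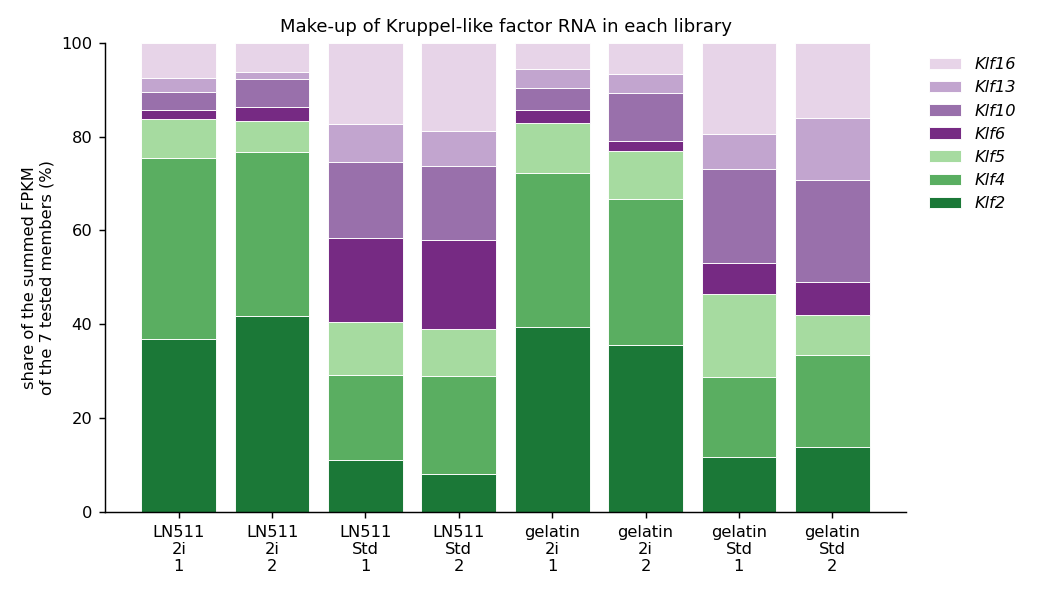
Share of the summed FPKM of the 7 tested members held by each (vertical axis, percent) in each of the 8 libraries. Green members are Klf2, Klf4 and Klf5, which take 76.9% to 83.8% in the libraries in 2i and 39.1% to 46.5% in those in Std; the purple Klf6 band is widest in LN511 Std.

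The genes most like these members were those with the smallest root mean square difference between profiles of log2(FPKM + 1), each centred on its own mean over the 8 libraries. For Klf2 they were the homeodomain factor Nanog (0.165, where the median gene was at 1.62), Rab11fip5 (0.232) and the ETS factor Elf3 (0.260). For Klf4 they were Serpinb1a (0.0570, median gene 1.18), the galactosyltransferase gene B4galt6 (0.106) and Ticrr (0.153), a gene of replication initiation. For Klf5 they were Rpap1 (0.135, median gene 0.693), Pls3 (0.160) and the retinaldehyde dehydrogenase Aldh1a2 (0.161). These share the difference between the gelatin Std replicates, with replicate 1 above replicate 2. There Klf5 was at 20.4 and 9.19 FPKM, Rpap1 at 34.6 and 19.9, Pls3 at 17.4 and 5.70 and Aldh1a2 at 1.00 and 0.187. The part of this pair of libraries in the likeness was not tested. Serpinb1a and Aldh1a2 were low genes, at 4.56 and 1.49 FPKM in LN511 2i, values to which the added 1 is large. Neither Klf2 nor Klf4 was among the 3 nearest of the other. Profiles were not scaled, so this follows from the unlike size of their fold changes and does not compare the shape of their profiles. In 2i these were 3.36 on LN511 and 2.88 on gelatin for Klf2, against 2.29 and 2.17 for Klf4.

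**Figure D4:**
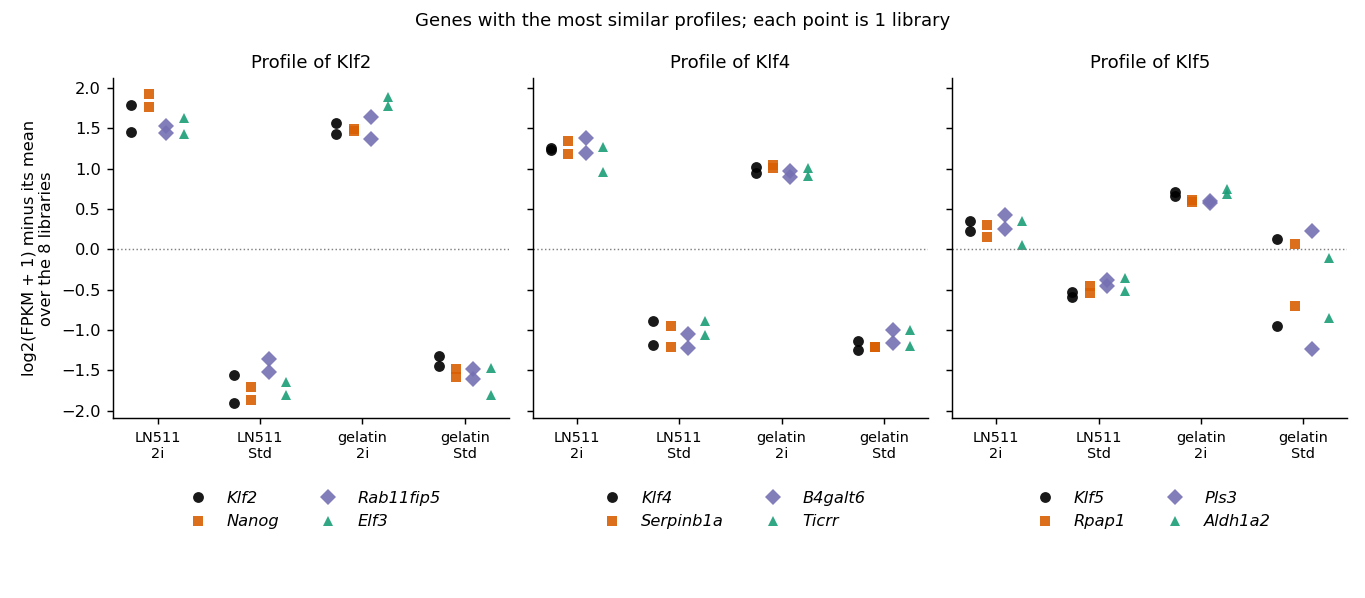
Profiles of Klf2, Klf4 and Klf5 and of the 3 tested genes nearest to each, as log2(FPKM + 1) minus the gene's own mean over the 8 libraries (vertical axis). Each point is 1 library in the group on the horizontal axis. Profiles of Klf2 and Klf4 split by medium, and those of Klf5 have gelatin 2i highest and the gelatin Std replicates apart.

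For the list counts that follow, 15.4% of all tested genes were called in 2i on gelatin and 18.6% on LN511. The rest of the Kruppel-like family held 8 listed genes, of which 3 were tested, and 1 rose in 2i on each coating. It was Klf15, best known from muscle and liver metabolism, at 8.73 FPKM in LN511 2i, against 3.09 FPKM in LN511 Std (log2 1.25, SE 0.21, limma adjusted p = 0.00938). On gelatin it was at 9.77 FPKM in 2i, against 2.53 FPKM in Std (log2 1.61, SE 0.21, limma adjusted p = 0.00441). Of the 9 related Sp factors, 5 were tested and 1 rose on each coating, Sp5, a target of Wnt and beta-catenin signalling. Sp5 was at 8.88 and 6.72 FPKM in LN511 2i, against 0.74 and 0.73 in LN511 Std (limma adjusted p = 0.00318), and at 10.7 and 7.54 FPKM in gelatin 2i, against 0.22 and 0 in gelatin Std (limma adjusted p = 0.00123).

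The list of 12 pluripotency partners of these factors had 8 higher and 1 lower in 2i on gelatin, and 7 higher and 1 lower on LN511, with median fold changes of 1.15 and 0.80. The leading ones were Nanog, at 582 FPKM in LN511 2i, against 45.8 in LN511 Std, and Tfcp2l1, which rose by 4.54 (SE 0.19) on gelatin and 3.67 (SE 0.19) on LN511. Upstream, of 8 tested LIF and STAT3 pathway genes, 1 rose on gelatin, the STAT inhibitor Pias3 (log2 2.03, SE 0.48, limma adjusted p = 0.0345). On LN511, 1 rose, the STAT3 feedback inhibitor Socs3 (log2 0.82, SE 0.21, limma adjusted p = 0.0393). On each coating 1 of 8 is no more than the share of all tested genes called (15.4% on gelatin and 18.6% on LN511). Socs3 was also the list's single call for coating, at 14.0 and 16.1 FPKM in LN511 Std, against 37.2 and 43.9 FPKM in gelatin Std (log2 -1.37, SE 0.21, limma adjusted p = 0.0324).

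Of 8 tested cofactors of the family, 1 rose in 2i on gelatin and 2 rose and 1 fell on LN511. Over all tested genes 15.4% were called on gelatin and 18.6% on LN511, so the 1 of 8 on gelatin is no more than that share. The deacetylase Hdac1 rose on both (log2 0.52 on gelatin and 0.69 on LN511, SE 0.072, limma adjusted p = 0.00572 and 0.00159). Ctbp2, a corepressor bound by Klf3, fell on LN511, at 56.1 and 43.6 FPKM in 2i, against 126 and 117 FPKM in Std (log2 -1.28, SE 0.16, limma adjusted p = 0.00337). Among 5 tested genes of factor turnover, Vhl, a ubiquitin ligase subunit, rose on gelatin (log2 1.12, SE 0.24, limma adjusted p = 0.0277) and none was called on LN511, where 1 of the 5 had an unadjusted p under 0.05, as did 3345 of all 10288 tested genes.

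Klf6 and Klf10 belong to immediate and early response programmes. Of 7 tested immediate early genes, 2 fell in 2i on gelatin and 5 on LN511, with none higher, and the median fold changes were -0.34 and -0.95. Myc was the leading one, at 4.54 and 7.07 FPKM in LN511 2i, against 38.6 and 40.8 FPKM in LN511 Std (log2 -2.61, SE 0.32, limma adjusted p = 0.00305). In the coating comparison in Std none of the 7 was called by limma, with 5 at an unadjusted p under 0.05 and a median of 0.70. Over all 10288 tested genes, 1637 had an unadjusted p under 0.05 and the median was 0.050. Egr1, left out of the tests for its zeros, was at 18.2 and 17.5 FPKM in LN511 Std, against 7.52 and 7.45 in gelatin Std, and was listed at 0 in LN511 2i and at 0.13 and 0.12 in gelatin 2i.

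Of 6 TGF-beta response genes, 2 fell in 2i on gelatin, and 3 fell and 1 rose on LN511. Skil, a feedback repressor of the pathway, fell by 2.38 (SE 0.21) on gelatin and fell by 2.26 (SE 0.21) on LN511, while Klf10 passed neither. Of 4 glucocorticoid response genes, listed for Klf9, 3 were tested, and limma called none in 2i on either coating. None of the 3 had an unadjusted p under 0.05 either, against 3087 of all 10288 tested genes on gelatin and 3345 on LN511.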

How the data were processed

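The deposited FPKM tables, made by the authors, hold a gene table keyed by symbol and a transcript table keyed by RefSeq or assembled transcript ID. TopHat2 2.1.1, Cufflinks 2.1.1 and mm10 are named in the submitters' processing notes. What each did, the annotation, the strandedness and the scaling are not stated in what was used here, and 0 sample columns were left out.

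Gene values were sums of RefSeq transcript rows, 32336 of 32688 of which matched a symbol in the RefSeq table for GRCm38.p6. The deposited gene table was an alternative, since it lists at 0 47.3% of the values that the sums put at 1 FPKM or more. The filter asked for 1 FPKM or more in 2 or more libraries. Of the genes that passed it, 969 were set aside for doubtful zeros, either 1 replicate at 0 beside another at 5 FPKM or more (838), or a whole group at 0 while the mean elsewhere reached 5 FPKM (131). That left 10288.

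limma 3.58.1 in R 4.3.3 (eBayes with trend) was fitted to log2(FPKM + 1) with 1 mean per group over all 8 libraries, leaving 4 residual degrees of freedom, and calls were made at a Benjamini-Hochberg adjusted p under 0.05. The code was tested on simulated data. No source says how separately the replicates were grown, so p-values measure the spread between these libraries. The alternatives were the gene table, a pseudocount of 0.1, no filter, doubtful zeros kept or (added after seeing the data) missing, 2 other scalings, no trend, fewer libraries and a replicate block.

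The members and gene lists were chosen with earlier results of these data known. Named genes were all members, up to 2 called genes of each list per comparison by lowest adjusted p, and the 3 genes nearest in profile to Klf2, Klf4 and Klf5. Egr1, Klf7, Klf8, Klf11 and the markers named singly were named after their values were seen. The values of 1 gene that the rule names are not reported here.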

Additional observations from a re-analysis of the deposited data

How the results depend on the processing

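Klf2 and Klf4 kept their direction and their call in 2i on both coatings under all 17 alternatives that could test them, with adjusted p from 9.02e-05 to 0.0134 for Klf2 on LN511 and from 0.000166 to 0.00784 on gelatin. No alternative scaling, pseudocount or filter reversed a member. In the deposited gene table, limma called 0 members in 2i on gelatin and 0 on LN511, since all tested members but Klf16 were set aside there or had no row. With 1 library left out, the members called numbered 2 to 3 for 2i on gelatin, 2 to 4 on LN511 and 0 to 1 for coating in Std.

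Directions that turned with 1 library left out all belonged to values that passed no test, with these ranges. For 2i on gelatin they were Klf6 -0.20 to 0.062, Klf10 -0.67 to 0.36, Klf13 -0.23 to 0.46 and Klf16 -0.30 to 0.072. For 2i on LN511 they were Klf10 -0.69 to 0.12 and Klf16 -0.066 to 0.13. For coating in Std they were Klf5 -0.69 to 0.38, Klf13 -0.60 to 0.095 and Klf16 -0.10 to 0.27. For coating in 2i they were Klf2 -0.035 to 0.30, Klf6 -0.30 to 0.36 and Klf10 -0.96 to 0.069. For the interaction they were Klf4 -0.031 to 0.26, Klf5 -0.78 to 0.29, Klf10 -0.64 to 0.39 and Klf16 -0.038 to 0.33.

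Counts over all tested genes moved more. For 2i on gelatin, 1585 genes became 295 with the gene table, 1003 with only the 4 libraries compared and 645 to 1521 with 1 library left out. For 2i on LN511, 1915 became 326, 966 and 862 to 1632. For coating in Std, 215 became 135 with the gene table, 6 with only 4 libraries, 80 with the replicate block and 9 to 199 with 1 library left out. For coating in 2i, 2 became 54 with the gene table, 0 with a pseudocount of 0.1, 15 with no filter, 42 with doubtful zeros kept, 0 with only 4 libraries, 8 without trend, 0 with the replicate block and 0 to 12 with 1 library left out. For the interaction, 19 became 65 with the gene table, 29 with no filter, 53 with doubtful zeros kept, 1 with the replicate block and 0 to 11 with 1 library left out. The cause was not tested where fewer samples or genes do not give it. Same-numbered replicates did not deviate together (correlations between -0.0203 and 0.0187 over 10288 genes), and the replicate block changed no call of a member. At these depths low values are coarse, and 2 libraries per group limit the precision of every fold change.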

Other observations

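Klf7, a member outside the 9 best known from the nervous system, was at 0.87 and 0.18 FPKM in LN511 2i, against 6.89 and 1.76 FPKM in LN511 Std. On gelatin it was at 1.98 and 0.77 FPKM in 2i, against 4.40 and 4.98 FPKM in Std. The media did not overlap on either coating, and neither fold change passed (limma adjusted p = 0.0851 on LN511 and 0.167 on gelatin). Klf8, a CtBP-binding repressor like Klf3, stood at 3.68 and 3.87 FPKM in LN511 2i, against 0.44 and 0 FPKM in LN511 Std. Gelatin 2i gave 0 and 8.08 FPKM, while both gelatin Std libraries were listed at 0, and these zeros kept Klf8 out of the tests. Klf11 was close to level, at 5.80 to 8.59 FPKM over the 8 libraries. Klf1, Klf12, Klf14 and Klf17 were below the filter.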
